A study of Mus musculus with 5 samples.

Results

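The genes studied here encode the semaphorin and ephrin guidance ligands and their plexin, neuropilin and Eph receptors, measured in the heart ventricles of mouse embryos exposed to caffeine or to vehicle in the uterus. They were chosen by gene symbol, with earlier results of these data known, and further genes with such symbols are not analysed here. They cover class 3 to class 7 semaphorins, plexins, EphA and EphB receptors, ephrin-A and ephrin-B ligands, Nrp1 and Nrp2. This gave 50 genes of the 18307 in the RefSeq gene table, of which 46 had enough counts to be tested. Both groups came from outbred CD-1 dams, and all embryos were taken at E10.5. The caffeine group came from dams given caffeine at 20 mg/kg daily from E6.5 to E9.5, and the vehicle group from dams given sodium chloride solution on the same days. A sample was a pool of ventricles from embryos of the same dams, so variation between single embryos was not measured. There were 2 vehicle and 3 caffeine libraries, and the question they address is whether early embryonic caffeine exposure changes ventricular gene expression.

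Semaphorins of class 3 are secreted and bind a neuropilin that pairs with a plexin, while semaphorins of classes 4 to 7 are mostly held at the membrane and bind plexins directly. The inner domain of a plexin acts on small GTPases and so changes adhesion and the actin cytoskeleton. Ephrins stay on the cell surface, ephrin-A by a lipid anchor and ephrin-B by a transmembrane segment, and their contact with Eph receptor tyrosine kinases sends signals into both cells. In the developing heart and vessels these systems are known for roles in outflow septation, in the patterning of vessels, in the separation of arterial from venous endothelium and in trabeculation.

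Library totals ranged from 21713381 to 25048134 estimated counts, and the correlation of log2 CPM, the counts scaled to a common library total, between libraries across genes was 0.986 to 0.994. The defining genes of myocardium, endocardium and epicardium were well measured: their summed levels ranged from 15600 to 19430 CPM, from 1328 to 1586 CPM and from 337 to 490.3 CPM. Markers of pharyngeal and outflow mesenchyme summed to 0.731 to 1.32 CPM, with 0 of 6 reaching the minimum for the test. Neural markers summed to 9.14 to 24.7 CPM, nearly all from Tubb3, Elavl3 and Elavl4, while Sox10 and Sox2 stayed under 0.4 CPM. Foregut and hepatic endoderm markers summed to 6.92 and 100.2 CPM in the vehicle libraries and to 35.7, 21.3 and 6.58 CPM in the caffeine libraries, led by Afp. No gene of any marker list passed the test described next.

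Nrp1, the ephrin Efnb3 and the plexin Plxnd1 had the highest levels of these families in the ventricle, and no guidance gene passed the test between caffeine and vehicle. Differences were tested with edgeR's quasi-likelihood test, with p-values adjusted by Benjamini-Hochberg over all 13829 genes tested and a threshold of 0.05. Of the 46 tested guidance genes 0 passed, against 1 gene in the whole table (0.00723%). With an unadjusted p under 0.05 there were 3 guidance genes, Plxna3, Sema3e and Epha3, all higher with caffeine, against 5.2% of all genes in either direction and 3.13% in that direction. Leaving out vehicle replicate 1 left 1 guidance gene at that level, against 4.23% of all genes, and scaling by library totals alone gave 5, against 5.97%. The share lower with caffeine at that level was 2.07% of all genes and 0 guidance genes. DESeq2 and limma-voom also passed 0 of the 46, against 0.13% of all genes with DESeq2. In bulk tissue, fewer cells of a type and less RNA per cell cannot be told apart.

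To compare genes with each other, CPM were divided by transcript length in kilobases. On this scale the mean over the 5 libraries was 101.8 CPM per kb for Nrp1, 91.0 for Efnb3, 79.4 for Plxnd1, 39.4 for Plxnb2 and 27.7 for Efnb2. With all annotated exon bases as the length, the same 5 genes led, but Nrp1, at 37.4 CPM per kb, stood behind Efnb3 at 91.0 and Plxnd1 at 75.1. The place of Nrp1 thus depended on the length used, while Efnb3 stood above Plxnd1 with either length. Of the 50 guidance genes 17 lay above the median level of all tested genes.

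**Figure D1:**
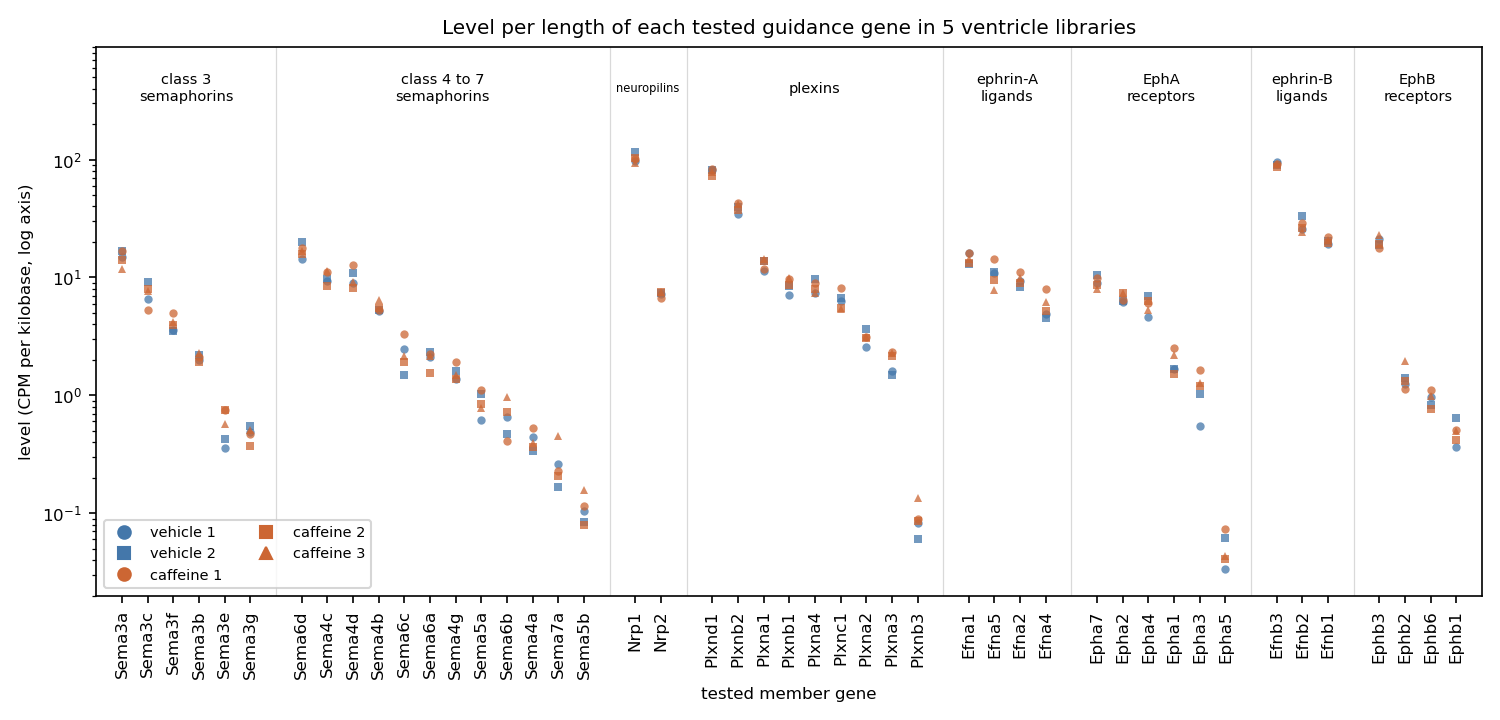
Level of the 46 tested guidance genes by family, in CPM per kb of transcript on a log axis, with a point for each of the 5 libraries (vehicle blue, caffeine orange). Nrp1, Efnb3 and Plxnd1 stand highest. In some families 1 gene lies far above the others, such as Nrp1 over Nrp2 and Ephb3 over the other EphB receptors shown. The EphA receptors, ephrin-A ligands and class 4 to 7 semaphorins are more graded.

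A single gene carried much of the level of several families, where shares are of the members studied here and not of the whole family. Nrp1 held 93.3% of the summed neuropilin level per kb, Ephb3 held 87.5% of the EphB level and Efnb3 held 65.4% of the ephrin-B level. Sema3a held 50.4% of the class 3 level and Plxnd1 held 49.5% of the plexin level. The spread was wider among EphA receptors, where Epha7 led with 36.9%, among ephrin-A ligands, where Efna1 led with 35.9%, and among class 4 to 7 semaphorins, where Sema6d led with 33.3%. At the other end, Efna3, Epha6, Epha8 and Sema4f had too few counts to test. The highest count of any of these in a library was 14, in Epha8.

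The class 3 ligands had 6 members, all tested, with 3 positive and 3 negative log2 fold changes (caffeine minus vehicle throughout). The most abundant was Sema3a, a chemorepellent that signals through Nrp1, at 86.1 and 96.2 CPM in the vehicle libraries and at 96.4, 80.5 and 68.5 CPM in the caffeine libraries. The groups overlapped, and the log2 fold change was -0.16 with a standard error (SE) of 0.15. It was -0.29 without caffeine replicate 1 and -0.04 without caffeine replicate 3. Sema3c, a ligand known for outflow tract septation, had 36.3 and 50.6 CPM with vehicle and 29.0, 44.1 and 42.2 CPM with caffeine. The caffeine libraries held both the lowest value and values between those of vehicle, with a log2 fold change of -0.18 (SE 0.20) that was 0.06 without vehicle replicate 2. Sema3g, a semaphorin made mainly by endothelium, was scarce at 1.68 to 2.51 CPM and had a log2 fold change of -0.22 (SE 0.29), which was -0.09 without caffeine replicate 2.

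Sema3e, the ligand that can bind Plxnd1 without a neuropilin, had the greatest log2 fold change of the tested guidance genes. It had 2.47 and 2.92 CPM in the vehicle libraries, from 60 and 64 counts. In the caffeine libraries it had 5.19, 5.11 and 3.95 CPM, from 125, 119 and 87 counts. All caffeine libraries lay above both vehicle libraries, with a log2 fold change of 0.82 (SE 0.26, 95% interval 0.26 to 1.38). The unadjusted p was 0.00728 and edgeR's adjusted p was 0.731. Sema3f, a ligand that prefers Nrp2, had 12.2 and 12.0 CPM with vehicle and 16.9, 13.3 and 14.2 CPM with caffeine. These groups did not overlap either, with a log2 fold change of 0.29 (SE 0.17, 95% interval -0.09 to 0.67) that was 0.19 without caffeine replicate 1.

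Of the 13 class 4 to 7 semaphorins 12 were tested, with 10 positive and 2 negative log2 fold changes and 0 with an unadjusted p under 0.05. Sema6d, known for its part in trabeculation through Plxna1, had 88.6 and 123 CPM with vehicle and 109, 96.7 and 102 CPM with caffeine. The caffeine libraries lay between those of vehicle, with a log2 fold change of -0.04 (SE 0.15) that was 0.02 with scaling by library totals alone. Sema4c, a ligand of Plxnb2, had 34.9 and 36.3 CPM with vehicle and 42.2, 32.1 and 42.7 CPM with caffeine, and Sema4d, a ligand of Plxnb1, had 40.1 and 48.5 against 56.6, 36.6 and 41.1 CPM. Both had the lowest value in caffeine replicate 2, and their log2 fold changes were 0.13 (SE 0.16) and 0.01 (SE 0.19). That of Sema4c was 0.06 without caffeine replicate 3 and 0.25 without caffeine replicate 2, and a gene on the other strand covers 7.27% of its exon bases. Sema6a had a log2 fold change of -0.18 (SE 0.19), with 14.5 and 16.1 CPM against 15.4, 10.6 and 14.7 CPM, and -0.03 without caffeine replicate 2, its lowest library. Sema7a, the lipid-anchored member, was scarce at 0.547 to 1.498 CPM, and its log2 fold change of 0.45 had an SE of 0.46. Without caffeine replicate 3, which had the highest Sema7a value, this was 0.02. Sema4b, named after its values were seen, had 20.7 and 20.9 CPM with vehicle and 21.1, 21.8 and 25.2 CPM with caffeine, groups that did not overlap.

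The neuropilins are shared by class 3 semaphorins and by some VEGF forms. Nrp1 had 349 and 418 CPM with vehicle and 363, 368 and 333 CPM with caffeine, with a log2 fold change of -0.11 (SE 0.13, 95% interval -0.39 to 0.16). The groups overlapped, and the value was -0.24 without vehicle replicate 1 and -0.0049 without vehicle replicate 2. Nrp2, the scarcer of the pair, had 46.2 and 47.8 CPM with vehicle and 43.4, 48.6 and 48.6 CPM with caffeine. Its log2 fold change was -0.0047 on the scaling used and 0.06 when counts were scaled by library totals alone, with an SE of 0.14 on the former.

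All 9 plexins were tested, with 6 positive and 3 negative log2 fold changes. Plxnd1, the endothelial plexin, had 567 and 559 CPM with vehicle and 574, 497 and 545 CPM with caffeine. Plxnb2, a widely expressed receptor of class 4 semaphorins, had 226 and 256 CPM with vehicle and 280.1, 243 and 274 CPM with caffeine. The groups overlapped in both genes, with log2 fold changes of -0.06 (SE 0.12) and 0.14 (SE 0.13). That of Plxnd1 was -0.11 without caffeine replicate 1 and -0.0081 without caffeine replicate 2, and that of Plxnb2 was 0.05 without vehicle replicate 1. Plxna2 and Plxna4, which act with neuropilins, had log2 fold changes of 0.01 (SE 0.16; -0.002 with RLE size factors) and -0.07 (SE 0.15), and in both the vehicle libraries stood at or near the ends of the range. Plxna2 had 28.5 and 40.1 CPM against 34.7, 33.9 and 34.8 CPM, and Plxna4 had 95.1 and 125 CPM against 116, 103 and 94.1 CPM.

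Plxna3, a coreceptor that works with neuropilins, had 11.2 and 10.2 CPM in the vehicle libraries and 16.2, 15.0 and 15.98 CPM in the caffeine libraries. The libraries of each group lay close together, and the groups did not overlap. Its log2 fold change of 0.55 (SE 0.17, 95% interval 0.19 to 0.91) had an unadjusted p of 0.00594, the smallest of the tested guidance genes, and edgeR's adjusted p was 0.725. Plxnb1, the receptor of Sema4d, had 61.1 and 72.6 CPM with vehicle and 83.9, 73.9 and 85.1 CPM with caffeine. These did not overlap by a narrow margin, with a log2 fold change of 0.28 (SE 0.14, 95% interval -0.03 to 0.58). Without vehicle replicate 1 it was 0.16. Plxnb3, named after its values were seen, was scarce, with 0.494 and 0.364 CPM with vehicle and 0.540, 0.516 and 0.817 CPM with caffeine. These came from 12 and 8 counts with vehicle and from 13, 12 and 18 with caffeine, and the log2 fold change of 0.52 had an SE of 0.47.

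The ephrin-A ligands had 2 positive and 2 negative log2 fold changes among 4 tested members. Efna1 had 23.9 and 19.3 CPM with vehicle and 23.9, 19.5 and 21.1 CPM with caffeine, nearly the same range, with a log2 fold change of -0.01 (SE 0.16) that was 0.05 with scaling by library totals alone. Efna5 varied more in the caffeine group, with 25.5 and 25.9 CPM with vehicle and 33.4, 22.3 and 18.2 CPM with caffeine. Its log2 fold change was -0.06 (SE 0.23), and 0.0027 with scaling by library totals alone. Efna4 had 7.83 and 7.24 CPM with vehicle and 12.7, 8.34 and 9.80 CPM with caffeine. The groups did not overlap, with a log2 fold change of 0.45 (SE 0.22, 95% interval -0.02 to 0.92) that was 0.27 without caffeine replicate 1. An antisense gene covers 10.5% of the exon bases of Efna4, and whether counting used strand is not given in the sources used here.

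Among the ephrin-B ligands, Efnb2, a marker of arterial endothelium, had 122 and 159 CPM with vehicle and 139.7, 127 and 117 CPM with caffeine. Efnb3 was steady over all libraries, with 303 and 288 CPM with vehicle and 289, 277 and 290.4 CPM with caffeine. Efnb1 had 62.5 and 65.7 CPM with vehicle and 72.0, 64.3 and 67.4 CPM with caffeine. The groups overlapped in all 3 genes, and the log2 fold changes were -0.14 (SE 0.14) for Efnb2, -0.05 (SE 0.12) for Efnb3 and 0.08 (SE 0.13) for Efnb1. The value for Efnb3 was 0.01 with scaling by library totals alone, and that for Efnb2 was 0.04 without vehicle replicate 2. Without vehicle replicate 2 the value for Efnb3 was -0.11, and without caffeine replicate 1 that for Efnb1 was 0.04.

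Of the 8 EphA receptors 6 were tested, 5 with a positive log2 fold change. Epha3, a receptor known for a part in endocardial cushion and atrial septum formation, had 3.13 and 5.83 CPM with vehicle, from 76 and 128 counts. With caffeine it had 9.30, 6.83 and 7.26 CPM, from 224, 159 and 160 counts. The groups did not overlap, but the vehicle libraries lay far apart. The log2 fold change was 0.80 (SE 0.28, 95% interval 0.20 to 1.41), the unadjusted p 0.0133 and edgeR's adjusted p 0.853. Vehicle replicate 1 set much of this size: the log2 fold change was 0.42 without it and 1.29 without vehicle replicate 2. Epha3 also had 1091 counts over all libraries in the Ensembl table against 747 in the RefSeq table, and there its log2 fold change was 0.68 (SE 0.23).

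Epha2 had 24.1 and 24.7 CPM with vehicle and 25.4, 28.8 and 28.8 CPM with caffeine, which did not overlap, with a log2 fold change of 0.18 (SE 0.14). Epha1 overlapped between the groups, at 5.52 and 5.42 CPM with vehicle and 8.22, 4.99 and 7.17 CPM with caffeine, with a log2 fold change of 0.31 (SE 0.24). It was 0.15 without caffeine replicate 1 and 0.49 without caffeine replicate 2, and the Zyx gene on the other strand covers 6.01% of its exon bases. Epha4 had 29.0 and 44.1 CPM with vehicle, and its caffeine values of 38.3, 39.7 and 33.2 CPM all lay between them. Epha7, the most abundant EphA receptor per length, had 59.1 and 68.6 CPM against 64.1, 56.6 and 52.1 CPM. The log2 fold changes were 0.02 (SE 0.18) for Epha4, from -0.25 without vehicle replicate 1 to 0.33 without vehicle replicate 2, and -0.15 (SE 0.14) for Epha7, which was -0.26 without vehicle replicate 1 and -0.06 without vehicle replicate 2.

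The 4 EphB receptors had 2 positive and 2 negative log2 fold changes. Ephb3 had 88.4 and 78.3 CPM with vehicle and 73.8, 80.3 and 95.6 CPM with caffeine, so the caffeine libraries held both the lowest and the highest value. Ephb2 had 13.6 and 15.3 CPM with vehicle and 12.4, 14.4 and 21.5 CPM with caffeine. Its log2 fold change was 0.15 (SE 0.22), and -0.11 without caffeine replicate 3, the library with the highest value. The log2 fold change of Ephb3 was -0.0024 (SE 0.15), and 0.06 with scaling by library totals alone.

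**Figure D2:**
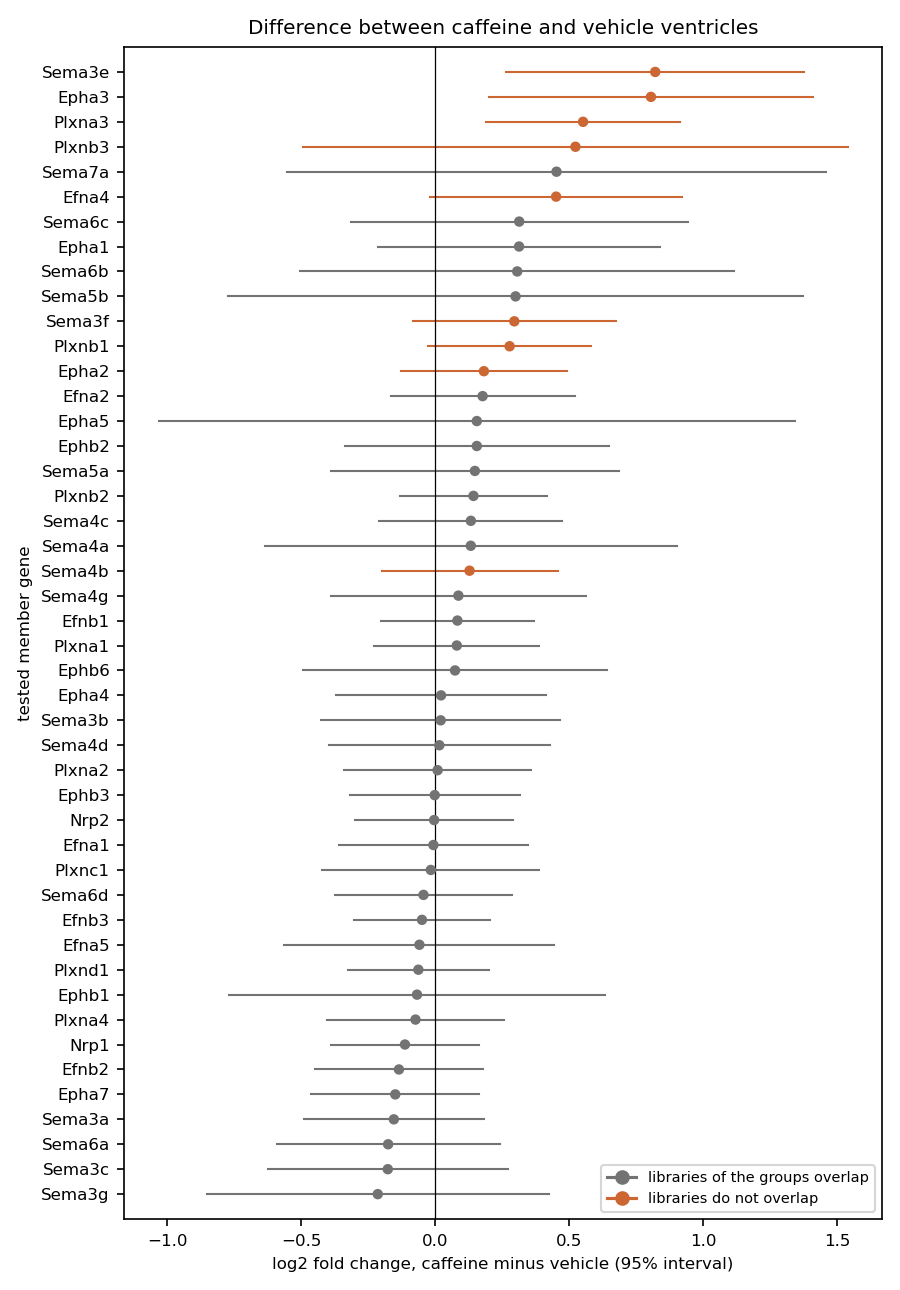
Log2 fold change of caffeine minus vehicle for the 46 tested guidance genes, with 95% intervals from the edgeR fit. The intervals of Plxna3, Sema3e and Epha3 lie above 0 and the other 43 include 0.

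The tested guidance genes ranged from -0.22 to 0.82 in log2 fold change, and 33 of the 46 lay within 0.2 of 0. The 95% interval lay within 0.5 of 0 for 22 genes and within 1 of 0 for 39. A difference of more than 2-fold in either direction was therefore outside the interval of those 39, while for the other 7, mostly scarce, it was not. Their median log2 fold change was 0.08, beside 0.01 for all tested genes, and 29 were positive (63%) against 53% of all tested genes. With scaling by library totals alone 36 of the 46 were positive, but the median of all tested genes was then also higher, at 0.07, beside 0.14 for the guidance genes. Without caffeine replicate 1, 23 of 44 were positive.

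For 9 guidance genes (19.6%) the vehicle and caffeine libraries did not overlap, against 20.4% of all tested genes. With scaling by library totals alone it was 11, all higher, while 22.1% of all genes did not overlap (17% higher, 5.18% lower). With TMM scaling, used throughout, all 9 were higher with caffeine, where 11.2% of all genes were higher and 9.27% lower without overlap. The 9 were Plxna3, Sema3e, Epha3, Efna4, Plxnb1, Sema3f, Epha2, Plxnb3 and Sema4b. The share without overlap was near that of all genes. With 1 library left out there were 25 without vehicle replicate 1 (14 higher, 11 lower), 21 without vehicle replicate 2 (18 higher, 3 lower), 16 without caffeine replicate 1 (11 higher, 5 lower), 16 without caffeine replicate 2 (16 higher, 0 lower) and 10 without caffeine replicate 3 (9 higher, 1 lower). In the same order, 25%, 26.7%, 18.4%, 16.9% and 16.4% of all genes were higher without overlap, and 25%, 27.9%, 16.6%, 14.5% and 14.5% were lower.

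**Figure D3:**
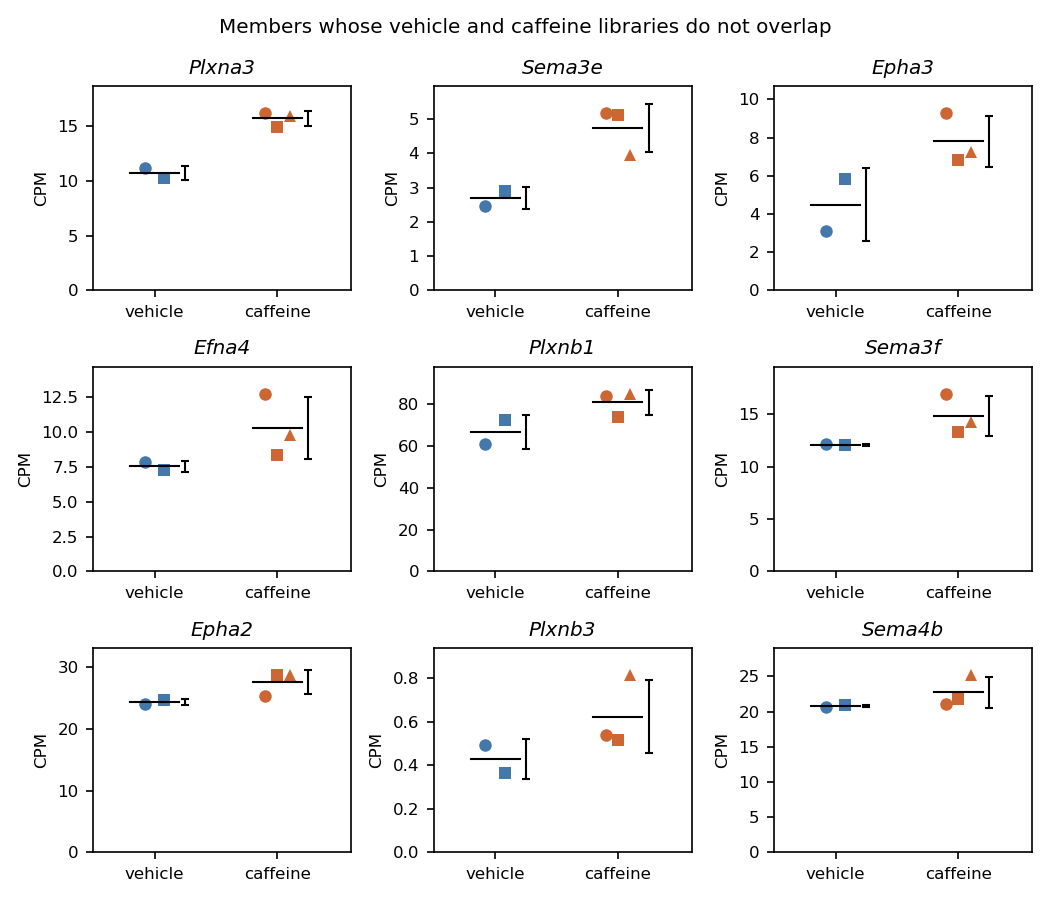
CPM of the 9 guidance genes whose vehicle and caffeine libraries did not overlap, with replicate 1 as a circle, replicate 2 as a square and replicate 3 as a triangle, the mean as a horizontal line and the SD as a bar. Plxna3 and Sema3e show a wide gap between the groups, while in Plxnb1 and Sema4b the nearest libraries almost touch.

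Single libraries moved many guidance genes together. Caffeine replicate 1 was the highest library for 20 of the 46 genes (43.5%), against 23.4% of all tested genes, and caffeine replicate 2 was the highest for 0, against 11.4%. Vehicle replicate 1 was the highest for 2 genes (4.35%) and the lowest for 14, against 21.8% and 24.6% of all genes. The median deviation of these genes from the vehicle mean was 0.12 on the log2 CPM scale in caffeine replicate 1, -0.05 in caffeine replicate 2 and 0.06 in caffeine replicate 3. It was -0.05 and 0.05 in the vehicle replicates, so the spread within each group covered the median difference between them.

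Some marker lists also stood apart in caffeine replicate 1. The 5 epicardial markers, all tested and all with a positive log2 fold change, summed to 337 and 382 CPM with vehicle and to 490.3, 404 and 337 CPM with caffeine. The 5 macrophage markers, of which 3 were tested, summed to 3.58 and 3.92 CPM with vehicle and to 10.6, 2.62 and 5.40 CPM with caffeine, with Aif1 at 0 in caffeine replicate 2. The 6 atrial and sinus venosus markers summed to 2221 and 1927 CPM with vehicle and to 1380, 1888 and 1937 CPM with caffeine, with Sln at 0 in vehicle replicate 2 and caffeine replicate 3. Epicardial and macrophage sums were highest and the atrial sum lowest in caffeine replicate 1. The atrial sum was mostly Myl7, at 2045 and 1742 CPM with vehicle and 1177, 1703 and 1734 CPM with caffeine. No other marker of the atrial list was lowest in caffeine replicate 1, and Nr2f2 was highest there, at 41.6 CPM. Shox2, a scarce marker of that list, had 0.206 and 0.137 CPM with vehicle and 0.415, 0.430 and 0.499 CPM with caffeine. Its log2 fold change was 1.35 (SE 0.57), with an edgeR adjusted p of 0.949. The part of these lists in the guidance gene values was not tested.

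Other marker sums differed between the groups or within them. The 6 cushion mesenchyme markers, all tested and 5 with a positive log2 fold change, summed to 580.2 and 714 CPM with vehicle and to 722, 741 and 732 CPM with caffeine. The caffeine sums were all above those of vehicle, with vehicle replicate 1 lowest. Tbx20 made up most of each sum, at 404.3 and 558.2 CPM with vehicle and 557.5, 575.7 and 551.2 CPM with caffeine. Vehicle replicate 1 was lowest for Tbx20 too, so these sums mainly reflect that gene, and no sum was taken without it. Taken singly, each of the 6 markers overlapped between the groups. The 6 myocardial markers, all tested and 4 with a negative log2 fold change, summed to 19430 and 18590 CPM with vehicle and to 17550, 16900 and 15600 CPM with caffeine. Every caffeine sum was lower, led by Myh7 at 9047 and 9289 CPM with vehicle and 8356, 7561 and 6957 CPM with caffeine. Of the 6, Myh7 and Myh6 alone did not overlap between the groups, and Nppa and Nkx2-5 had positive log2 fold changes of 0.12 and 0.13. The 6 erythroid markers, all tested, summed to 8526 and 4859 CPM with vehicle and to 7155, 5249 and 7867 CPM with caffeine, so the vehicle libraries lay at the ends of the range. The part of these cell types in the guidance gene values was not tested.

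**Figure D4:**
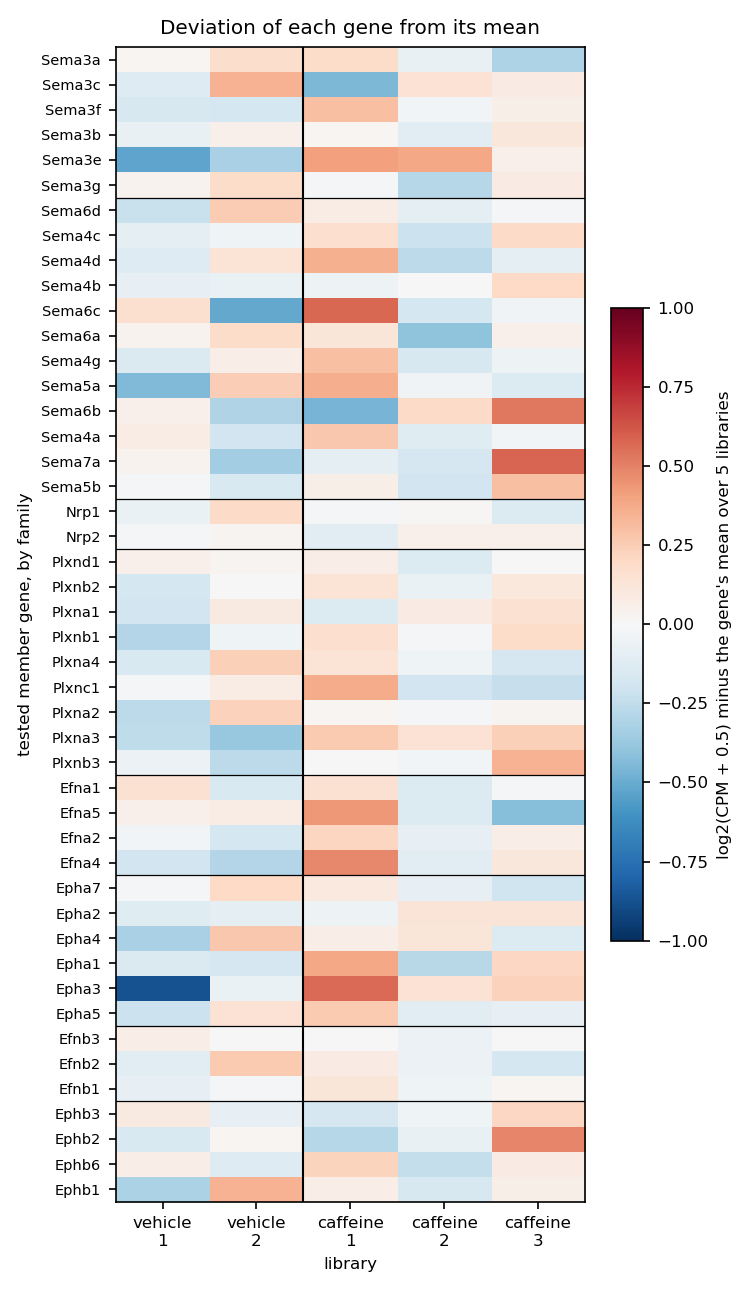
Deviation of log2(CPM + 0.5) of each tested guidance gene from its own mean over the 5 libraries, with red for higher and blue for lower. The caffeine replicate 1 column holds the highest value for 20 of the 46 genes, and the caffeine replicate 2 column holds it for 0.

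The 3 genes with an unadjusted p under 0.05 lie on different chromosomes: Plxna3 at chrX:74329066-74344689 on the plus strand, Sema3e at chr5:14025276-14256689 on the plus strand and Epha3 at chr16:63545218-63864157 on the minus strand (mm10). Several guidance genes are close neighbours. Efna3 lies 10.5 kb from Efna4 and 34.0 kb from Efna1, and Sema3b lies 72.3 kb from Sema3f. The Plxnb3 and Plxna3 genes are 556.6 kb apart on the X chromosome, and Sema3a ends 421.8 kb before Sema3e. Plxnb3 and Plxna3 had near-equal log2 fold changes of 0.52 and 0.55, while Efna4 had 0.45 and Efna1 -0.01, and Sema3e had 0.82 and Sema3a -0.16.

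The promoter sequences of these 3 genes are shown to let their starts be compared, together with that of Sema3a, whose transcripts are described next. They are RefSeq sequences of GRCm38.p6, from 250 bases before to 50 bases after the annotated start, 5′ to 3′ on the strand of the gene. Capitals mark matches to the GC box (GGGCGG) and the E-box (CACGTG) on either strand. The windows are chrX:74328816-74329115 on the plus strand, chr5:14025026-14025325 on the plus strand, chr16:63864126-63864425 on the minus strand and chr5:13396534-13396833 on the plus strand.
Plxna3: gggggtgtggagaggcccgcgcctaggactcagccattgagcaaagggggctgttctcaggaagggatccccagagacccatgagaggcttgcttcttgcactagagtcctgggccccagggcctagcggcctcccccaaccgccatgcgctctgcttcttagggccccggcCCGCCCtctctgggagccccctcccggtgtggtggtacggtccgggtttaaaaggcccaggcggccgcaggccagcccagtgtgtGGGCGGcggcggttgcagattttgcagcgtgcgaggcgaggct
Sema3e: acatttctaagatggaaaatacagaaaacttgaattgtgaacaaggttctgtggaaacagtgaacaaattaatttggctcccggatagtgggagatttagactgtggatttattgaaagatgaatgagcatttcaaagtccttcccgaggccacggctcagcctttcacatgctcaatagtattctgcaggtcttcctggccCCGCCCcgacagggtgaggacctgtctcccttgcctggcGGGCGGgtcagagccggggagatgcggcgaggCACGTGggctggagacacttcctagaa
Epha3: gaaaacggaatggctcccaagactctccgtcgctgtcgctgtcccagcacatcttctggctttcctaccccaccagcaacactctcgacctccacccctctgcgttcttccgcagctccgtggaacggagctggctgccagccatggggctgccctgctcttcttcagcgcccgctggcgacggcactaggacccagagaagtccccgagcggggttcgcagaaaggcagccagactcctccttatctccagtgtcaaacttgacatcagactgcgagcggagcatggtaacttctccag
Sema3a: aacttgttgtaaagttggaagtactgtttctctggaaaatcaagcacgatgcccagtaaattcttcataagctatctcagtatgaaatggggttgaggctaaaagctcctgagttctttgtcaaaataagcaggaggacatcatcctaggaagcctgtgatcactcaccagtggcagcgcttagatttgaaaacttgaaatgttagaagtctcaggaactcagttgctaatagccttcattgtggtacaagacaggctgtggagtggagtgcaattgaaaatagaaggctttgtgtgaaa

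The Plxna3 window holds 2 GC boxes, the Sema3e window holds 2 GC boxes and 1 E-box, and the windows of Epha3 and Sema3a hold neither. Their GC content was 67.7% for Plxna3, 50.7% for Sema3e, 60.7% for Epha3 and 41.3% for Sema3a. A promoter was found for 44 of the 50 guidance genes, with a median GC content of 64.5% against 61.0% in 10210 promoters of tested genes. The 44 include the untested Efna3, Epha6, Epha8 and Sema4f. Guidance promoters were those nearest the deposited start, and background promoters the first listed per gene. The windows of Sema4d and Sema6d lay 36961 and 43285 bases from the deposited start. The GC box was present in 33 of the 44 (75%) against 64.9%, and the E-box in 2 (4.55%), Sema3e and the untested Epha8, against 10.1%. A cAMP response element (TGACGTCA), a motif bound by factors that answer to cAMP, was present in 1 (2.27%), Epha2, against 3.2%, and the letters TATAAA were present in 1 (2.27%) against 6.94%. Both strands were searched for each motif and none of them contains another. A match describes the letters and is not a binding site.

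At the level of RefSeq transcripts, 68 transcripts of guidance genes were tested and 0 passed, as did 0% of all 18418 transcripts (edgeR, adjusted p under 0.05). With an unadjusted p under 0.05 there were 5 guidance transcripts, against 7.36% of all transcripts. These were the single listed transcripts of Plxna3 (log2 fold change 0.55, SE 0.18), Sema3e (0.82, SE 0.30) and Epha3 (0.81, SE 0.33), 1 transcript of Sema3a (-0.82, SE 0.34) and 1 of Sema6c (1.67, SE 0.70). The lowest edgeR adjusted p among them was 0.528, for Plxna3. Transcripts of Sema6b and Plxnb1 came next by p.

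Transcript usage, whether the transcripts of a gene shift against each other, could be tested in 11 guidance genes, and 0 passed, against 3.07% of all such genes (edgeR's diffSpliceDGE). The smallest p was that of Sema3a, at 0.0456 unadjusted and 0.267 adjusted by edgeR. Its 3 transcripts differ in where they start on chromosome 5. The share of the gene's counts given to the transcript that starts at 13399309 was 51.2% and 58.7% with vehicle and 68.6%, 66.4% and 83.2% with caffeine. The transcript that starts at 13398997 had 37.5% and 31.8% with vehicle and 24.2%, 25.8% and 13.4% with caffeine. The transcript with the most upstream start, 13396784, had 11.2% and 9.52% with vehicle and 7.24%, 7.74% and 3.38% with caffeine. None of the 3 shares overlapped between the groups, and the promoter printed above is that of the last of these transcripts. The shares add up to the whole gene, so they are not 3 separate observations, and Sema3a was picked by its smallest p. By level rather than share, 23.3% of all tested transcripts did not overlap between the groups. How often shares do so in other genes was not tested. With the Simes adjustment in diffSpliceDGE, the p of Sema3a was 0.186 unadjusted and 0.853 adjusted.

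Sema6b came next in the usage test, with an unadjusted p of 0.0692 and an edgeR adjusted p of 0.325. The transcript with the longer genomic span held 81.1% and 28.6% of the counts with vehicle and 6.06%, 22.8% and 29.6% with caffeine, so the vehicle libraries differed most from each other. Ephb1 had 79.5% and 45.2% for 1 of its 2 transcripts with vehicle and 7.41%, 11.6% and 79.6% with caffeine, a range as wide within the caffeine group as over all libraries. These shares rest on few counts, 33 to 71 per library for Sema6b and 39 to 62 for Ephb1. Of the 6 Nrp2 transcripts the most abundant had 28.0% and 26.9% with vehicle and 25.5%, 24.4% and 26.0% with caffeine. The least abundant varied more, with 2.94% and 4.48% with vehicle and 6.52%, 5.93% and 4.29% with caffeine. Epha7 was the other gene among the 5 smallest p-values, with an unadjusted p of 0.344 and an edgeR adjusted p of 0.700. How the authors' counting divided reads among transcripts of a gene sets these shares, and that error is not part of the test.

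**Figure D5:**
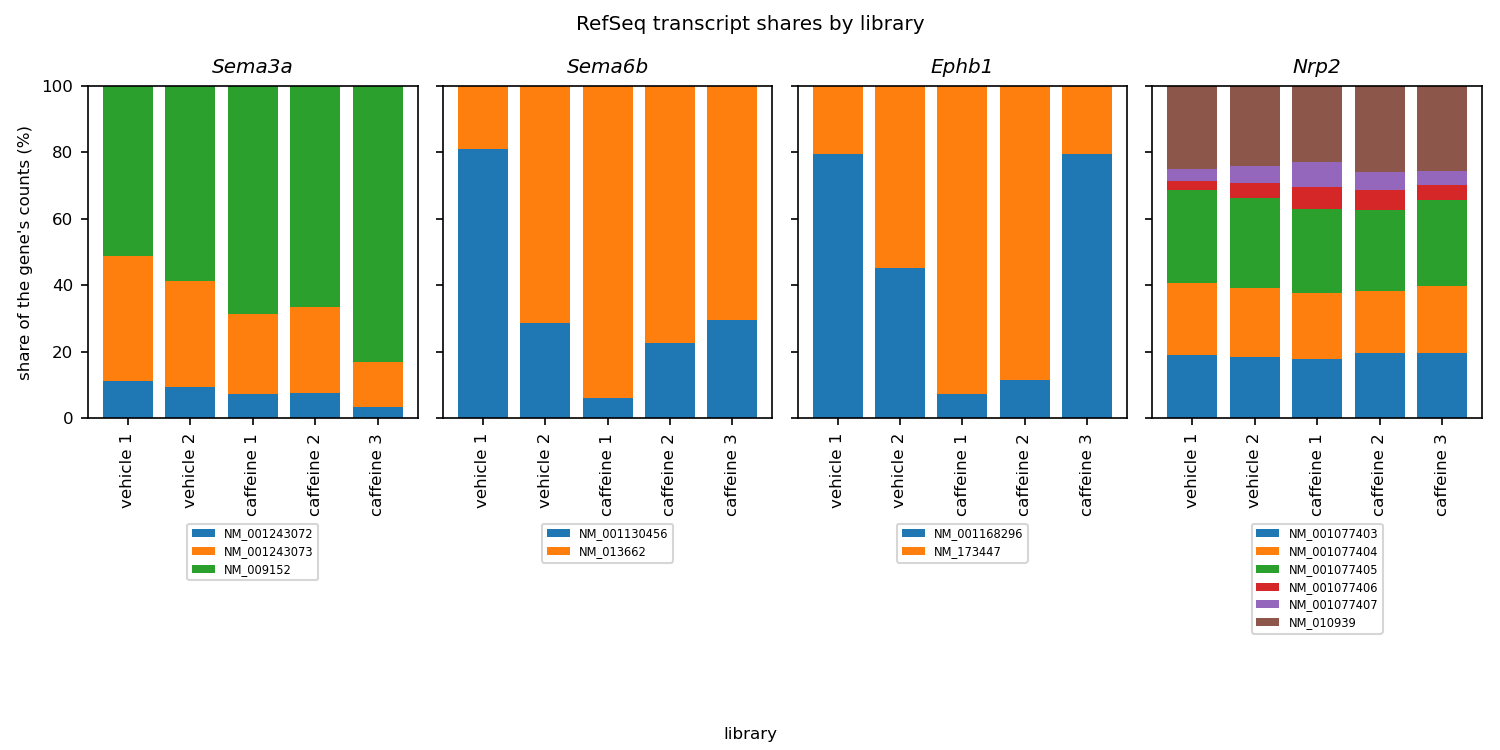
Share of the estimated counts of Sema3a, Sema6b, Ephb1 and Nrp2 given to each RefSeq transcript, as stacked bars in percent for each library. The green part of Sema3a is larger in every caffeine library than in both vehicle libraries, the bars of Sema6b and Ephb1 differ widely within a group, and the larger parts of Nrp2 are alike in all libraries.

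Downstream and partner genes, such as the GTPase regulators and cytoskeletal proteins that relay plexin and Eph signals, were read from a separate list. Of 53 listed genes 51 were in the table and 50 were tested. The test passed 0 of them in either direction, and 0 had an unadjusted p under 0.05. The log2 fold changes were positive for 25 and negative for 25, with a median of 0.00. For 10 genes (20%), 5 higher and 5 lower, the groups did not overlap, against 20.4% of all tested genes. Dpysl3 and Dpysl2 belong to the collapsin response mediator proteins, which act in class 3 semaphorin signalling. Dpysl3 had 141 and 255 CPM with vehicle and 277, 273 and 267 CPM with caffeine, with a log2 fold change of 0.46 (SE 0.22). That size rested on vehicle replicate 1, without which it was 0.09. Dpysl2 had a log2 fold change of -0.20 (SE 0.12), which was -0.13 without vehicle replicate 1. Vav2, a protein that binds Eph receptors, had 0.41 (SE 0.20), and 0.13 without vehicle replicate 1. Limk2, a kinase that acts on cofilin, had 0.20 (SE 0.12).

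Of 19 genes of other guidance families (Slit, Robo, netrin, Unc5, Rgm and Flrt), 16 were tested. The test passed 0, and 0 had an unadjusted p under 0.05. There were 10 positive and 6 negative log2 fold changes, with a median of 0.07. For 2 genes (12.5%), 1 higher and 1 lower, the groups did not overlap, against 20.4% of all tested genes. Unc5b, a netrin receptor of vessels, had 214 and 228 CPM with vehicle and 238, 256 and 268 CPM with caffeine, without overlap, and a log2 fold change of 0.20 (SE 0.12). Robo2, a Slit receptor, was lower without overlap, with a log2 fold change of -0.15 (SE 0.18). Rgma had 0.36 (SE 0.27), which was 0.20 without vehicle replicate 2, and Flrt2 had 0.19 (SE 0.19), which was -0.03 without vehicle replicate 1.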

How the data were processed

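RNA from pooled E10.5 ventricles (2 vehicle and 3 caffeine pools) was sequenced from TruSeq libraries, per the labels. The authors deposited estimated counts per gene and per transcript on RefSeq and Ensembl, per the file headers; they need not be whole and are not scaled between libraries. Tools and builds in the submitters' processing notes are Partek, TopHat, GRCm38 and mm10. The sources used here give neither read length nor strand use. Deposited stops were often 1 base past the reference end, so ends are printed as the stop minus 1.

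Estimated counts were rounded. Low genes were removed with filterByExpr, and TMM factors of 0.970 to 1.02 set the library sizes. The two-sided quasi-likelihood test with robust estimation was that of edgeR 4.0.16 under R 4.3.3. Its p-values were adjusted by Benjamini-Hochberg across every feature left after the filter. The common biological coefficient of variation was 0.145. Transcript usage was tested with diffSpliceDGE. The SE is the absolute log2 fold change divided by the root of its F statistic. DESeq2 1.42.0 and limma 3.58.1 were alternatives. CPM per kb used GENCODE M21 transcripts that carry the RefSeq accessions (50 of 50 genes). The steps were tested on simulated data.

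With 2 and 3 pools, p-values measure the spread between these pools. The guidance genes, gene lists and tests were chosen with earlier results of these data known. Named genes were the 2 most abundant per family, the 8 higher and 8 lower with the smallest p, and 23 fixed cardiovascular genes; for transcripts and usage the 5 smallest p, and for each pathway list the 4 smallest p. Further genes with such symbols are not analysed here. Alternatives changed scaling, filter, tool, dispersion, annotation, threshold, block and the libraries used.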

Additional observations from a re-analysis of the deposited data

How the results depend on the processing

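The number of guidance genes past the threshold was 0 in each alternative, including the Ensembl gene counts, DESeq2, limma-voom and a threshold of 0.1 in the fit without a block. Their median log2 fold change, 0.0811 as reported, ranged from 0.0091 without caffeine replicate 1 to 0.1467 without caffeine replicate 2. The median of all tested genes was 0.0078 in the former and 0.0159 in the latter. The pooled SD of the guidance median between libraries was 0.0828, larger than the reported median, so staying within that SD is no sign of stability. The number without overlap was 9 as reported, 11 with scaling by library totals alone (22.1% of all genes) and 10 to 25 with 1 library left out; fewer libraries make overlap rarer. Guidance genes with changed transcript usage numbered 0, also with 1 caffeine library left out. Without vehicle replicate 1, Sema4a crossed the threshold, but this rested on 1 vehicle library and on 23 to 39 counts per library. In vehicle replicate 2, 1 Sema4a transcript held 69.6% of the counts. It held 3.03% in vehicle replicate 1 and 2.56%, 3.85% and 3.70% with caffeine.

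Whether the replicate numbers tie the pools could not be settled. Deviations of same-numbered pools from their group mean correlated at -0.0251 and 0.162 across genes, and those of other pairs at 0.0251, -0.162, 0.151 and -0.151. With 2 vehicle libraries the vehicle deviations mirror each other, so these correlations cannot decide it. With the replicate block, 52 genes of the table passed and 0 guidance genes did, the lowest edgeR adjusted p being 0.0802 (Epha3), and the median was 0.0423. Log2 fold changes that changed sign with the replicate block were 0.007 for Efna1, 0.0919 for Efna5, -0.1117 for Ephb2 and 0.0051 for Plxna4.

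Of 582 alternative log2 fold changes of the 39 named genes, 541 had the same sign and 41 did not; all those that did not were from genes whose reported value lay within 0.2 of 0, and the cause was not tested. With scaling by library totals alone these were 0.0548 for Efna1, 0.0027 for Efna5, 0.011 for Efnb3, 0.0584 for Ephb3, 0.0555 for Nrp2 and 0.0154 for Sema6d. With the 5 CPM filter they were 0.0003 for Efna1, 0.0047 for Ephb3 and 0.0024 for Nrp2. With Ensembl counts they were 0.0348 for Efna5, 0.0054 for Ephb3, 0.0013 for Nrp2 and 0.0369 for Plxna4. Plxna2 had -0.002 with RLE size factors and with DESeq2, and Sema4d had -0.0022 with limma-voom. With 1 library left out, values ranged, with both ends set by a vehicle library, from -0.1807 to 0.1568 for Efna1, -0.3124 to 0.0363 for Efnb2, -0.2515 to 0.3261 for Epha4, -0.0285 to 0.4207 for Flrt2, -0.2199 to 0.2491 for Plxna2, -0.2589 to 0.1089 for Plxna4, -0.4003 to 0.0558 for Sema3c and -0.2642 to 0.1863 for Sema6d. They ranged from -0.342 (without caffeine replicate 1) to 0.118 (replicate 3) for Efna5, from -0.1101 (replicate 3) to 0.3132 (replicate 1) for Ephb2, from -0.0317 (replicate 3) to 0.0483 (replicate 1) for Nrp2 and from -0.1902 (replicate 1) to 0.1414 (replicate 2) for Sema4d. For Ephb3 they ranged from -0.1138 (without caffeine replicate 3) to 0.0869 (without vehicle replicate 1). Where a vehicle library was left out, the single vehicle library was assumed to vary like the caffeine group. Low counts limit Sema3g, Sema4a, Sema7a, Plxnb3, Ephb1 and the named Sema6c transcript.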
